A study of Homo sapiens with 18 samples.

Results

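Knockout cells that carry added IMPDH2 without a localisation label were compared with WT cells, using 3 libraries of each out of the 18 in the study. The 6 libraries were chosen by their labels alone, and the comparison asks which RNA levels still differ from WT once the enzyme is present again. The cells are MDA-MB-231, an established line of triple-negative breast cancer grown from a pleural effusion, kept in DMEM with serum and antibiotics. WT cells (unedited in the figures) carry no edit in the labels. KO cells (knockout in the figures) have IMPDH2 knocked out. The KO+IMPDH2 cells are KO cells with IMPDH2 added back, and they received no guanosine. The other 12 libraries give context in 4 groups of 3, namely KO cells, KO cells with 400 µM guanosine, and KO cells given IMPDH2 labelled nuclear or cytosolic. The KO background is therefore common to every group except WT. The promoter and vector of the added gene, and whether the KO cells and those derived from them are 1 clone or a pool, are not given in the sources used here. Separate cultures are not stated either, so p-values measure the spread between these libraries, which may be technical. The cell line field of the labels rises by 1 number from sample to sample while the growth conditions name MDA-MB-231 for all. The genotype field likewise reads IMPDH2, IMPDH3 and IMPDH4 over the libraries of the nuclear form and again over those of the cytosolic form, while their titles name IMPDH2 throughout; in the KO and KO+IMPDH2 libraries it names IMPDH2 alone. All p-values below are Benjamini-Hochberg adjusted values from edgeR's quasi-likelihood test over all genes, and a gene passed at an adjusted p under 0.05.

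IMPDH2 encodes inosine monophosphate dehydrogenase 2, which turns inosine monophosphate into xanthosine monophosphate with the reduction of NAD+. This is the committed and rate-limiting step of guanine nucleotide synthesis, and the product is carried on to GMP by GMP synthase. Proliferating and tumour cells rely mainly on IMPDH2, while IMPDH1 catalyses the same reaction and is often the constitutive form. Guanosine can enter the guanine pool by salvage, after cleavage to guanine by PNP and addition of ribose phosphate by HPRT1.

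Libraries held 49.9 M to 56.3 M estimated counts in the 6 compared, and 45.9 M to 63.3 M over all 18. Of 62749 genes in the files, 19252 were tested, 14000 of them coding. Mitochondrially encoded genes took 5.15% to 5.21% of the counts in WT and 7.25% to 7.62% in KO+IMPDH2 cells, with no overlap. The line's own markers were present, with VIM at 2750 to 2880 TPM (a level relative to transcript length and to the whole library) in WT and 2310 to 2450 in KO+IMPDH2 cells. ESR1, PGR, CDH1 and FOXA1, which mark luminal or epithelial cells, stayed at or below 0.398 TPM in each of these 6 libraries. EPCAM, an epithelial surface protein, was at 8.37 to 14.6 TPM in both. GATA3, another luminal marker, was at 3.16 to 3.73 TPM in WT and 1.7 to 2.25 in KO+IMPDH2 cells, with no overlap. CD3E, HBB and CDH5, which define T cells, red cells and endothelium, were at or under 0.0559 TPM. Other markers of blood and endothelium were read at low levels, with CD14 at 1.11 to 1.29 TPM in WT and 0.888 to 1.08 in KO+IMPDH2 cells. KDR, an endothelial growth factor receptor, was at 1.46 to 1.62 TPM in WT and 3.57 to 4.0 in KO+IMPDH2 cells, and PECAM1, an endothelial adhesion protein, at 1.6 to 2.13 and 0.53 to 0.724. Their part in the results was not tested.

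IMPDH2 RNA stood above the WT level after reconstitution. In CPM (counts relative to the library size after TMM scaling), the gene (ENSG00000178035.13, chromosome 3, 49024325 to 49029408 in GRCh38) read 319.5, 318.4 and 318.6 in WT, 41.36, 42.26 and 41.22 in KO, and 531.7, 542.8 and 522.0 in KO+IMPDH2 libraries. No values overlapped between the 3 groups, and the reconstituted cells reached 166.9% of WT. The rise over WT was 0.74 ± 0.029 (SE) on the log2 scale (adjusted p = 1.47e-13), and that over KO was 3.68 ± 0.033 (adjusted p = 1.12e-21). The forms labelled nuclear and cytosolic averaged 297.4 and 378.7 CPM, and KO cells with guanosine 22.1.

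The make-up of the IMPDH2 transcripts differed from WT. The main coding transcript, IMPDH2-201, read 170.21, 162.17 and 165.68 TPM in WT and 378.98, 368.29 and 360.21 in KO+IMPDH2 cells, or 222.4% of WT. In KO it was listed at 0, 16.44 and 11.60 TPM. A second coding transcript, IMPDH2-202, averaged 10.64 TPM in WT, 0.15 in KO and 0.74 with the enzyme. Transcripts that keep an intron stood at 10.81 ± 0.42 TPM (SD, n = 3) in WT, 6.43 in KO and 5.95 ± 0.20 in KO+IMPDH2 cells, which is 55.0% of WT. Those annotated for nonsense-mediated decay read 22.62 to 35.98 TPM in WT, 21.63, 2.29 and 2.61 in KO, and 3.15, 8.41 and 3.5 in KO+IMPDH2 cells. The KO mean of 8.85 TPM rests on 1 library, and the other two KO libraries lie below all 3 KO+IMPDH2 libraries. Spliced coding RNA was thus above WT while the intron-keeping and decay-class RNA were below it, and these transcript values carry no test. In KO replicate 1, IMPDH2-201 read 0 and the decay class 21.63 TPM, at a gene level like that of the other KO libraries. Reads may therefore be divided between these classes, so the decay-class values are uncertain.

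**Figure D1:**
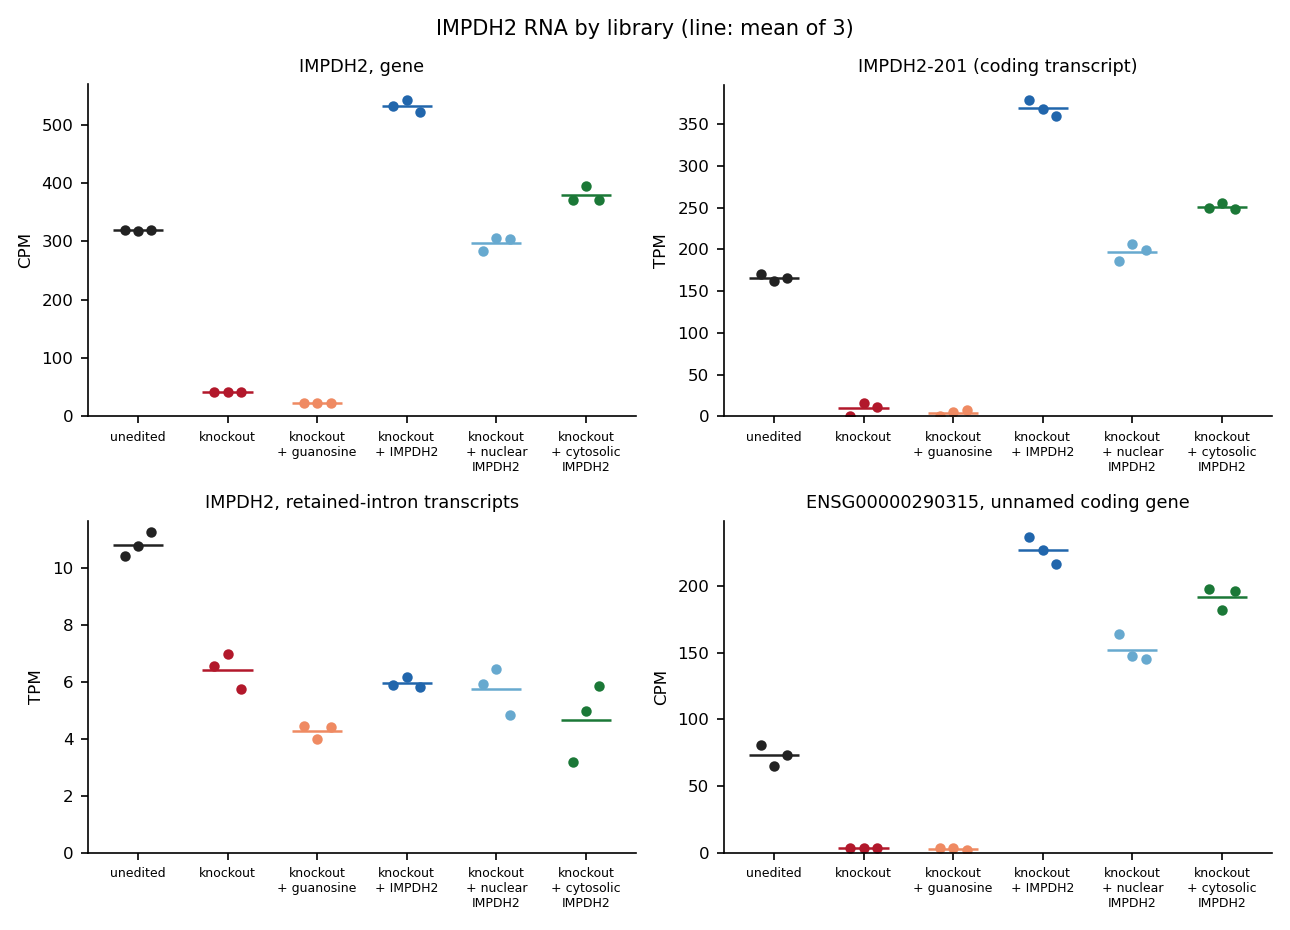
IMPDH2 RNA in each of the 18 libraries, as the gene in CPM, as the coding transcript IMPDH2-201 and the retained-intron transcripts in TPM, and the unnamed gene ENSG00000290315 in CPM. Points are libraries and lines are means of 3; the gene lies at 522.0 to 542.8 CPM in KO+IMPDH2 cells against 318.4 to 319.5 in WT, while retained-intron transcripts lie below WT in every KO-derived group.

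A neighbour of IMPDH2 limits how its reads can be read. QRICH1, at 49029707 to 49094363 next to IMPDH2, fell from 95.68, 103.8 and 98.61 CPM in WT to 13.01, 7.436 and 12.82 in KO+IMPDH2 cells (log2 fold change -3.16 ± 0.16, adjusted p = 6.01e-12), against 93.4 on average in KO. An unnamed coding gene, ENSG00000290315, for which no position was used here, moved the other way, from 73.0 CPM in WT and 3.36 in KO to 226.7. The sum of that gene and QRICH1 averaged 172.4 CPM in WT and 237.8 in KO+IMPDH2 cells, so with both counted as one the direction turned (log2 0.48, adjusted p = 1.57e-09). Counted with IMPDH2 instead, ENSG00000290315 raised the IMPDH2 difference from WT to 0.97 on the log2 scale. QRICH1 is therefore reported as uncertain, since reads may be divided between annotations that share sequence.

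Most genes still differed from WT. Of the 19252 genes tested, 12417 passed (64.5%), with 5982 higher (31.1%) and 6435 lower (33.4%) in KO+IMPDH2 cells. At 2-fold or more, 2869 passed (14.9%), of which 1420 were higher (7.38%) and 1449 lower (7.53%). Which direction held more calls depended on the processing, since scaling by library totals gave 7244 higher and 5452 lower (1631 and 1271 at 2-fold or more), and no filter on low counts gave 6373 and 6240. Among coding genes 33.5% were higher and 40.3% lower, with a median log2 fold change of -0.03 and a median size of 0.32 in either direction. Libraries of a group were close to each other, with a common biological coefficient of variation of 4.87%, so small differences pass. The same KO cells without the enzyme differed from WT in 13996 genes (72.7%), with 4377 (22.7%) at 2-fold or more. KO+IMPDH2 differed from KO in 9780 genes (50.8%), but in only 955 (4.96%) at 2-fold or more. In 13255 genes (68.8%) the WT and KO+IMPDH2 values did not overlap, and in 11201 (58.2%) the KO and KO+IMPDH2 values did not. These comparisons share libraries, so their values are given side by side and not combined. The KO+IMPDH2 libraries lay between WT and KO on the first principal component, which held 45.4% of the variance, and nearer to KO.

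Some genes were read in WT and silent with the enzyme back. With silence set at 3 counts or fewer over the 3 libraries and presence at 1 CPM or more on average, 43 genes (31 coding) were silent in KO+IMPDH2 cells and present in WT, and 16 (11 coding) were the other way round. A total of 3 counts over the group corresponds to 0.0183 CPM in KO+IMPDH2 cells and 0.0199 in WT, a limit of counting only. Of the 31 coding genes, 26 were silent in KO as well, 27 in KO with guanosine, 26 with the nuclear form and 28 with the cytosolic form. In none of these 4 groups did any of the 31 reach 1 CPM. Of the 11 coding genes that were silent in WT, 10 reached 1 CPM in KO, 11 in KO with guanosine, 10 with the nuclear form and 7 with the cytosolic form, and 6 did so in all 4 groups. One of them is TSPAN7, a tetraspanin, with 1 count in WT and 482 in KO+IMPDH2 cells, a ratio of 441 (95% interval 78.8 to 17500, counting error only).

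The coding genes silent in KO+IMPDH2 cells were not spread evenly, with 13 of the 31 on the X chromosome and 5 at the start of chromosome 8. The X-linked ones include the cancer-testis antigens MAGEA3, MAGEA12, MAGEA10, MAGEA2, PAGE5 and FMR1NB, proteins normally made in germ cells. MAGEA3 read 33.52, 36.97 and 33.65 CPM in WT and 0 in all 3 KO+IMPDH2 libraries, at least 1900-fold lower against the limit of 3 counts over the group. MAGEA12 was at least 942-fold, MAGEA10 at least 570-fold and FMR1NB at least 474-fold lower by the same measure. MAGEA2, MAGEA2B, MAGEA3, CSAG2, CSAG3, CT47A10 and TUBA3C have near-identical copies between which counting can divide reads, so their single values are uncertain. COL4A5, a basement membrane collagen on X, kept 3 counts against 3117 in WT, a ratio of 1140 (95% interval 388 to 5510, counting error only).

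The 5 genes at the start of chromosome 8 are ERICH1, TDRP, FBXO25, CLN8 (a membrane protein of the endoplasmic reticulum) and ARHGEF10 (an activator of small GTPases). CLN8 averaged 10.1 CPM in WT and had 0 counts in KO+IMPDH2 cells, 1 in KO and 0 in KO with guanosine. ARHGEF10 had 3530 counts over the WT libraries, 0 in KO, 1 in KO+IMPDH2 and 6 with the nuclear form. Of the other tested coding genes that start within the first 3 Mb, MYOM2, KBTBD11 and CSMD1 had 0 counts in KO+IMPDH2 cells against 103, 57 and 126 in WT, and ZNF596 fell from 156 counts to 18. The low counts thus run over neighbouring genes, in every KO-derived group.

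PHGDH, chosen after its values were seen from the serine list, stood just above the limit for silence. It encodes the enzyme that opens serine synthesis from a glycolytic intermediate. The 3 WT libraries read 62.76, 65.45 and 66.74 CPM, and the KO+IMPDH2 libraries 0.0541, 0 and 0.0186, which is 4 counts against 9766. The ratio was 2670 (95% interval 1040 to 9790, counting error only). KO, KO with guanosine and both localised forms were at 0 counts.

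Promoter letters are shown for 3 genes, chosen after their values were seen, since each passes between a clear signal and silence or, for PHGDH, near-silence. The sequences are the 250 bases before the RefSeq start in GRCh38.p14, 5′ to 3′ on the gene's strand, with the CG dinucleotides, where human DNA is mostly methylated, in capitals. LHFPL4 on the minus strand (chr3:9553823-9554072) had 0 counts in KO+IMPDH2 cells and was at least 204-fold higher in WT. PHGDH is on the plus strand (chr1:119711684-119711933). ITM2A on the minus strand (chrX:79367335-79367584) was silent in WT and read in every KO-derived group.
LHFPL4: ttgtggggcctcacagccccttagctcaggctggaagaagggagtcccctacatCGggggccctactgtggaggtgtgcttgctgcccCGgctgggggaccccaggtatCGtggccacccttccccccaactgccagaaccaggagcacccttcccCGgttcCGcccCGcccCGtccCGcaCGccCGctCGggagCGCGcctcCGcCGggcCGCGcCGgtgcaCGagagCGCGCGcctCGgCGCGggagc
PHGDH: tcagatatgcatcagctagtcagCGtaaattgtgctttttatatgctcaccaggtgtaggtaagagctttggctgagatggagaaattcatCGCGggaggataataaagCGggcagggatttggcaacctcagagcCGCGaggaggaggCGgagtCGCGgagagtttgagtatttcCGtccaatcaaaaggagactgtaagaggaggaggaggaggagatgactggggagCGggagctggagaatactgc
ITM2A: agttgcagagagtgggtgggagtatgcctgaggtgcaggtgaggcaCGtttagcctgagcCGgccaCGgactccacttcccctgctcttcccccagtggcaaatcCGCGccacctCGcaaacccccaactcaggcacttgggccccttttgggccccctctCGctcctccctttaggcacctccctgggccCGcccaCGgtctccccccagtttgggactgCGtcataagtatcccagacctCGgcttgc

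The LHFPL4 window holds 25 CG dinucleotides, and 21.3% of the 27305 promoters in the table hold as many or more. PHGDH and ITM2A each hold 11, which is the median over the table. Of the 31 coding genes silent in KO+IMPDH2 cells, 21 were found in the table by symbol, with a median of 12 CG dinucleotides and a range of 0 to 33. The 11 genes silent in WT gave 7 matches with a median of 13, and 11242 coding genes tested had a median of 20. These counts describe the letters of the windows and no methylation was measured.

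**Figure D2:**
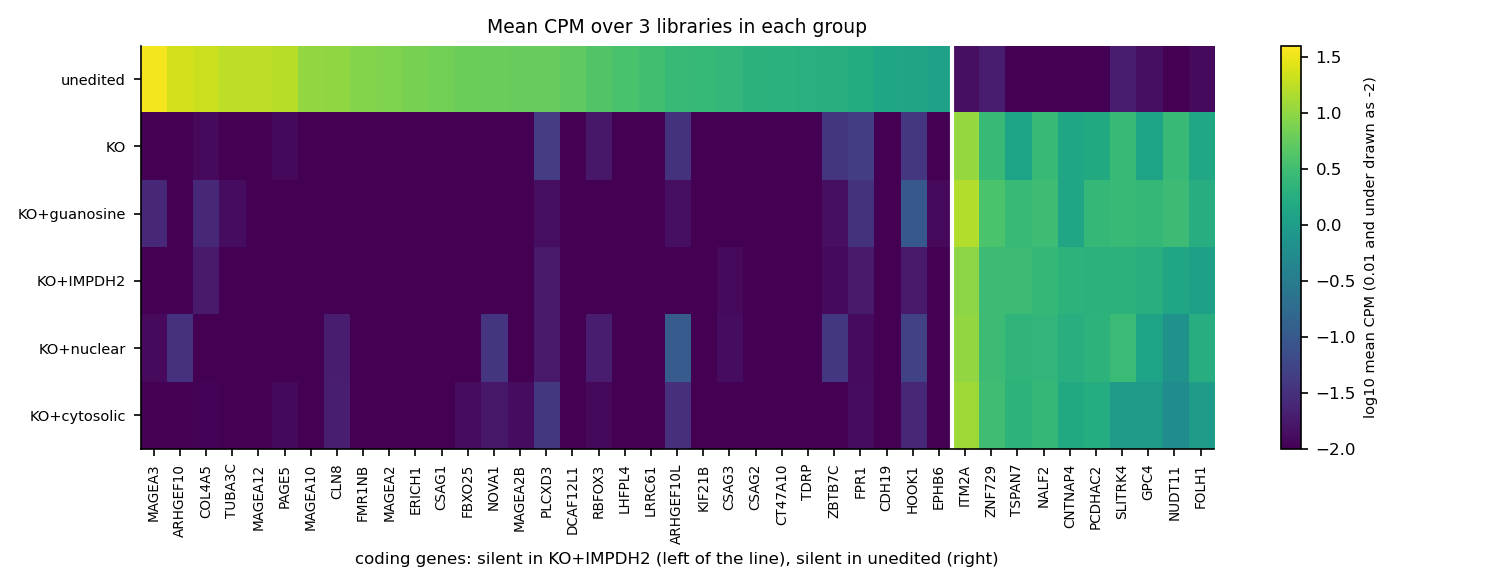
Mean CPM over 3 libraries, on a log10 colour scale, of the 31 coding genes silent in KO+IMPDH2 cells and 10 of the 11 silent in WT, in all 6 groups (rows). The left genes are bright in WT alone, and the right genes are dark in WT alone, with the 5 KO-derived rows on the same side of it.

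Other genes were near 0 in WT and clearly read in KO+IMPDH2 cells. ITM2A, a membrane protein linked to chondrocyte and muscle differentiation, read 0, 0.0424 and 0 CPM in WT and 8.776, 9.667 and 10.12 in KO+IMPDH2 cells, with 2 counts against 1564 and a ratio of 716 (95% interval 198 to 5910). KO libraries read 11.39, 10.7 and 10.24, so the enzyme's return left no difference that passed (adjusted p = 0.0656). EPB41L3, a membrane-cytoskeleton linker of the protein 4.1 family, rose from 0.7329, 0.7207 and 0.5399 CPM to 102.7, 101.6 and 102.0 (log2 fold change 7.26 ± 0.054, adjusted p = 3.52e-23), and KO averaged 80.9. PGM5, a phosphoglucomutase-like protein of adherens junctions, rose from 0.2067, 0.212 and 0.18 to 37.74, 38.7 and 40.88 CPM (7.60 ± 0.10, adjusted p = 1.67e-19). VWA5A read at most 0.9198 CPM in WT, 39.63 to 41.93 with the enzyme and 74.96 to 79.01 in KO. It was the member of this group with the largest difference between KO+IMPDH2 and KO apart from IL13RA2, at -0.91 on the log2 scale (adjusted p = 6.40e-10).

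The other coding genes with the largest rises were RPS6KA6 (a ribosomal S6 kinase), AMOT (angiomotin, which binds YAP), SHROOM4, MAGED4, MAGEB1, ZNF727 and ZNF722, with log2 fold changes of 5.26 to 6.47 over WT. Of these 7, RPS6KA6 and ZNF722 also differed from KO, by 0.44 and -0.23. MAGEB1, another cancer-testis antigen, read 0.7704, 0.6783 and 0.5399 CPM in WT, 25.03, 25.72 and 25.7 in KO+IMPDH2 and 25.62, 25.7 and 23.79 in KO. MAGED4 has a near-identical copy, so its value is uncertain.

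Among genes of at least 100 TPM in either group, MMP1 had a large absolute change. This interstitial collagenase read 2012, 2128 and 2005 CPM in WT and 16100, 17140 and 16520 in KO+IMPDH2 cells (log2 fold change 3.02 ± 0.041, adjusted p = 1.91e-19). KO libraries were higher still at 22570, 21750 and 21020 CPM, and the difference of KO+IMPDH2 from KO was -0.39 (adjusted p = 9.96e-08). TFPI2, an inhibitor of plasmin and other serine proteases, rose from 40.95, 44.02 and 45.97 to 286.3, 273.5 and 275.7 CPM. RPL22L1, a paralog of ribosomal protein RPL22, rose from 36.42, 34.7 and 36.99 to 140.5, 153.3 and 154.9 CPM. SPANXA2, a sperm protein with near-identical copies, rose by 2.10 on the log2 scale.

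HLA-DRA, a chain of the MHC class II molecule that presents peptides to CD4+ T cells, went further from WT with the enzyme than without it. It read 7.817, 8.479 and 7.458 CPM in WT, 62.79, 64.35 and 62.36 in KO, and 114.1, 113.2 and 110.2 in KO+IMPDH2 cells. The 3 groups did not overlap, with log2 fold changes of 3.83 ± 0.058 over WT (adjusted p = 1.15e-18) and 0.83 over KO (adjusted p = 6.72e-11).

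The abundant genes with the largest falls were led by F3, tissue factor, the cell-surface trigger of coagulation. F3 read 307.6, 307.7 and 309.2 CPM in WT and 57.22, 57.62 and 56.95 in KO+IMPDH2 cells (log2 fold change -2.43 ± 0.039, adjusted p = 1.41e-18), and 48.27 to 52.37 in KO. F2RL1, the protease-activated receptor PAR2 through which tissue factor complexes can signal, fell from 585, 582.5 and 615.7 to 148.2, 146.2 and 146.0 CPM (-2.02 ± 0.038, adjusted p = 1.31e-17). KO libraries read 137.3 to 148.7 CPM for F2RL1, and the enzyme made no difference to it that passed (adjusted p = 0.229). COL8A1, a short-chain collagen, fell from 252.2 to 261.8 CPM in WT to 55.49 to 58.96, and stood above KO (30.56 to 31.91). HMGB3, a chromatin protein, and ENPP1, an ectonucleotidase, fell by 1.77 and 1.64 on the log2 scale.

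**Figure D3:**
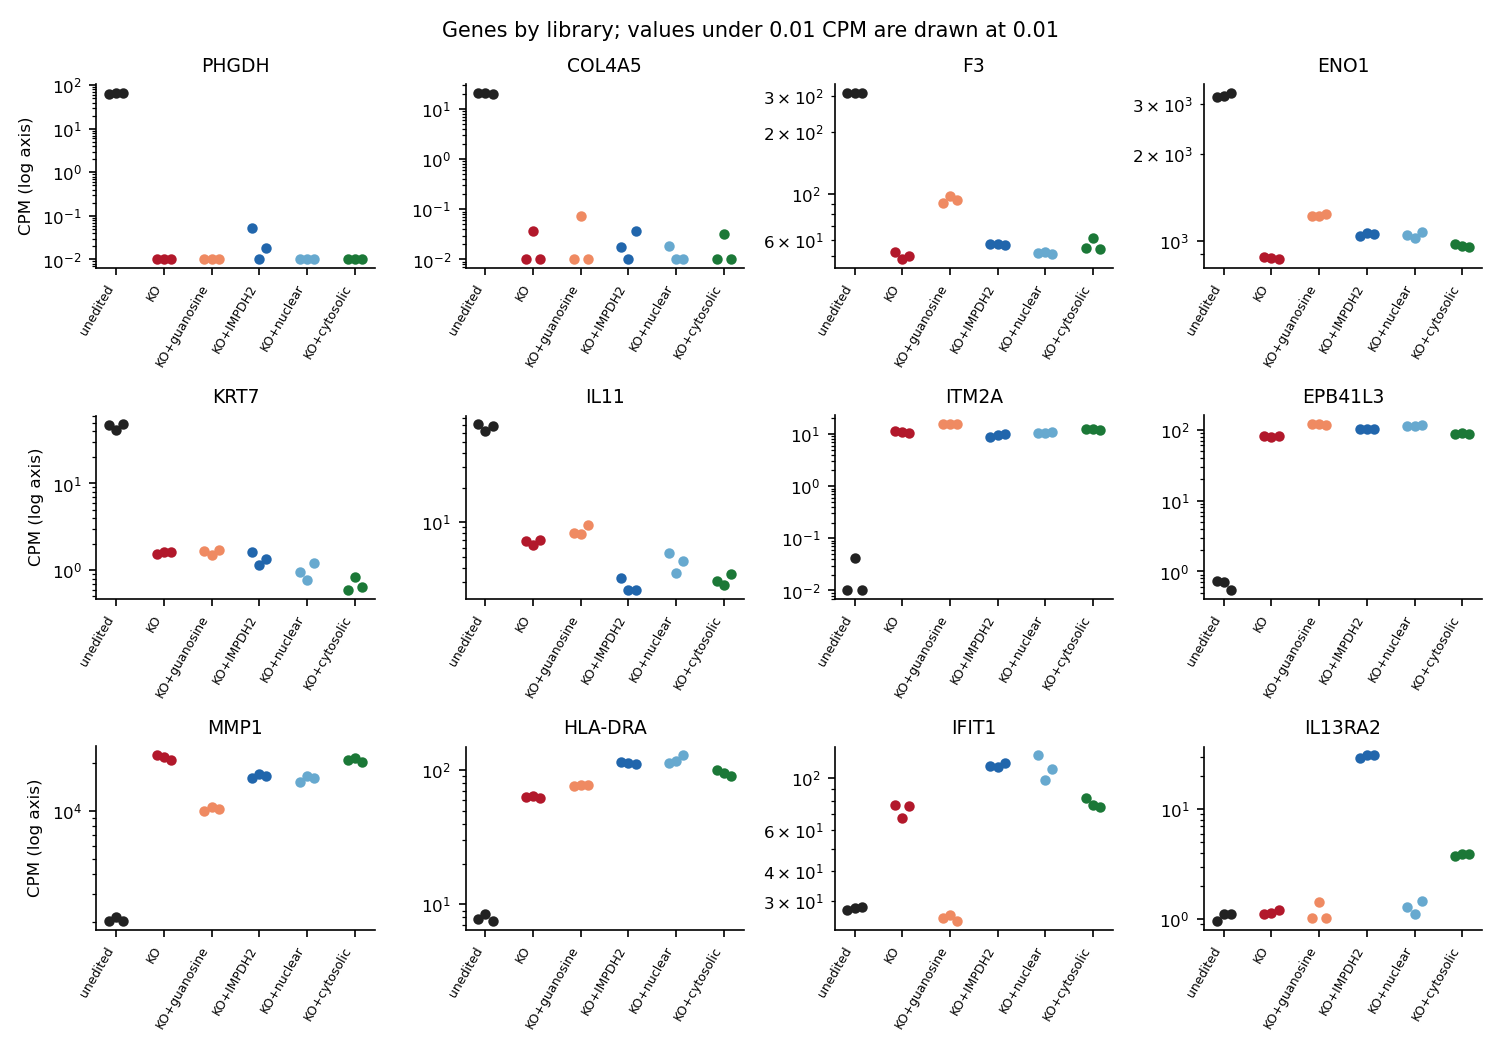
CPM of 12 genes described in the text, in each library of the 6 groups, on log axes that differ between panels. For PHGDH, F3, KRT7, ITM2A and EPB41L3 the KO+IMPDH2 points lie near KO and far from WT, and values under 0.01 CPM are drawn at 0.01; IL13RA2 is high in KO+IMPDH2 alone at 29.09 to 31.22 CPM.

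Against KO, the genes that rose most with the enzyme were mostly still below WT. Apart from IMPDH2, ENSG00000290315 and IL13RA2, the largest rises were in MALL, NEGR1, ENG, HMMR and CCDC69. NEGR1, a neural cell adhesion protein, read 3.216, 3.281 and 3.419 CPM in KO, 13.48, 12.9 and 13.75 in KO+IMPDH2 and 40.61, 41.18 and 44.73 in WT. CCDC69 read 23.89 to 24.05 CPM in KO, 64.02 to 68.75 in KO+IMPDH2 and 120.9 to 131.6 in WT. HMMR, a mitotic spindle protein and hyaluronan receptor, read 6.807 to 7.599 CPM in KO, 19.44 to 21.96 with the enzyme and 23.24 to 24.29 in WT, a gap to WT of -0.20 ± 0.055 (adjusted p = 0.0043). That gap did not pass without KO+IMPDH2 replicate 1 (adjusted p = 0.0543) or under scaling by library totals (adjusted p = 0.0643). For MALL, NEGR1, ENG and CCDC69 the log2 differences from WT were -0.90, -1.66, -0.54 and -0.90.

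The genes with the largest falls from KO include several that were higher in KO than in WT. IL2RG, the common gamma chain of cytokine receptors, read 16.38, 16.57 and 16.13 CPM in KO, 1.82, 1.741 and 1.972 in KO+IMPDH2 and 0.8644, 1.335 and 1.18 in WT. It thus fell by 3.15 on the log2 scale from KO and stayed 0.72 above WT (adjusted p = 5.07e-05). MDK, the growth factor midkine, read 55.85 to 62.31 CPM in KO, 14.23 to 15.68 with the enzyme and 7.843 to 9.546 in WT. KISS1 and EPHB1 were likewise lower than in KO and 1.77 to 1.79 above WT on the log2 scale. IL32 and SUN3 also fell from KO, and their differences from WT did not pass (adjusted p = 0.317 and 0.974). Scaling by library totals in place of TMM turned the split of calls against KO from 4944 higher (25.7%) and 4836 lower (25.1%) to 3543 higher and 6505 lower. The same scaling took the median difference of all genes from KO from -0.02 to -0.10 on the log2 scale, so small list medians against KO depend on it.

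Genes are described next by lists of known roles, of which counts cover the members that passed the filter on low counts. That filter kept 17 of 26 luminal, 8 of 15 blood and endothelial, 17 of 27 cancer-testis, 25 of 30 mesenchymal and 25 of 28 collagen genes, and left out at most 2 members of any other list. Each count against WT is to be read beside all coding genes tested, of which 33.5% were higher, 40.3% lower and 73.8% passed in either direction. Cell division genes showed a part-way level. Of 34 genes of G2/M and mitosis, 33 were lower than WT, 0 higher and 1 did not pass, with a median log2 fold change of -0.57 beside -0.03 for coding genes. All 34 were higher than in KO (33.2% of coding genes were, and 26.2% were lower), with a median of 0.86, and KO itself was at -1.45 to WT. PLK1, a kinase that drives mitotic entry, read 149.3, 153.1 and 147.4 CPM in WT, 34.31, 34.0 and 34.04 in KO and 82.61, 84.07 and 82.11 in KO+IMPDH2 cells. KIF20A, a kinesin of cytokinesis, read 153.8 to 160.9, 29.45 to 30.41 and 61.9 to 68.21 CPM in the same order. For both, the 3 groups did not overlap. TTK, a spindle checkpoint kinase, and PRC1, a spindle midzone protein, fell by 1.12 and 1.00 from WT on the log2 scale.

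Genes of DNA replication were nearer to WT. Of 37 tested, 10 were higher, 11 lower and 16 did not pass against WT, beside 73.8% of coding genes that passed, with a median of -0.01 that turned to 0.07 under library totals. Against KO, 34 of the 37 were higher, with a median of 0.38, and KO against WT had a median of -0.48. MCM4, a subunit of the replicative helicase, read 196.4, 202.5 and 195.0 CPM in WT, 93.02, 94.37 and 97.75 in KO and 136.2, 139.7 and 136.1 in KO+IMPDH2 (log2 fold change to WT -0.53 ± 0.022, adjusted p = 4.23e-13). LIG1, the ligase that joins Okazaki fragments, stood above WT at 76.62 to 78.12 against 57.3 to 62.38 CPM (0.37 ± 0.031, adjusted p = 6.16e-09). In the same direction, POLE2, a subunit of polymerase epsilon, was 0.46 above WT. RPA1, RPA2 and ORC1 were 0.54 to 0.56 below it.

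Genes of the guanine branch went both ways. Of 11 tested, 5 were higher than WT, 3 lower and 3 did not pass, with a median of 0.06, so 8 of 11 passed beside 73.8% of coding genes. IMPDH1 (chromosome 7, 128392277 to 128410252), the enzyme's paralog, read 44.93, 44.24 and 42.05 CPM in WT and 52.4, 53.09 and 51.61 in KO+IMPDH2 (0.26 ± 0.032, adjusted p = 1.22e-06), and its difference from KO did not pass (adjusted p = 0.235). HPRT1, the salvage enzyme for guanine and hypoxanthine, fell from 94.36 to 100.5 CPM in WT to 57.04 to 64.01 (-0.67 ± 0.042, adjusted p = 1.19e-10) and read 50.44 to 50.88 in KO. PNP rose from 112.8 to 115.8 to 157.9 to 166.9 CPM. GMPS, GMP synthase, whose values were picked out afterwards, averaged 109 CPM in WT and 107 with the enzyme, and 83.9 in KO.

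The synthesis of purines upstream and of the other building blocks of DNA was mixed. Of 15 de novo purine genes, 8 were higher than WT and 4 lower (median 0.12), led by PFAS and GART upward, both of which act before inosine monophosphate, and by the adenylate kinase AK4 downward. ADSS1, an adenylosuccinate synthase, rose from 0.4663 to 0.5074 CPM in WT to 3.676 to 3.954. Of 18 pyrimidine and deoxynucleotide genes, 4 were higher and 8 lower than WT, while 13 were higher than in KO. CAD, which starts pyrimidine synthesis, was 0.56 above WT, and RRM1, the large subunit of ribonucleotide reductase, 0.37 below. Of 20 genes of serine, glycine and one-carbon metabolism, 10 were lower than WT and 2 higher, with a median of -0.28, beside -0.50 in KO. TYMS, thymidylate synthase, averaged 202.4 CPM in WT and read 80.97, 75.0 and 80.36 in KO and 120.1, 127.8 and 125.6 in KO+IMPDH2 cells. SHMT2, the mitochondrial serine hydroxymethyltransferase, was 0.64 below WT and 0.29 above KO.

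Genes of sterol synthesis, glycolysis and the ATF4 response, low in KO, were mostly low with the enzyme. Of 31 sterol synthesis genes, 26 were lower than WT and 2 higher (median -0.65, beside -0.83 in KO against WT). INSIG1, which retains the SREBP activator in the endoplasmic reticulum, read 232.1, 228.9 and 230.5 CPM in WT, 69.04, 70.19 and 72.2 in KO and 85.63, 80.58 and 76.94 in KO+IMPDH2. SQLE, squalene epoxidase, and TM7SF2, a sterol reductase, were the 2 members above WT, by 0.53 and 0.73.

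Of 30 genes of glycolysis and hypoxia, 21 were lower and 6 higher than WT, with a median of -0.35. ENO1, enolase, read 3180, 3196 and 3279 CPM in WT, 875.6, 869.1 and 859.3 in KO, and 1034, 1060 and 1052 in KO+IMPDH2 (log2 fold change -1.62 ± 0.021, adjusted p = 1.67e-19). ENO1 lies on chromosome 1 within the stretch of low neighbours described further on. LDHA, lactate dehydrogenase A, fell from 2368 to 2469 to 1442 to 1470 CPM, and SLC16A3, a lactate exporter, from 383.1 to 408.4 to 118.0 to 133.8. The glucose transporter SLC2A1 was 1.12 below WT and SLC2A3 0.81 above it.

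Of 32 genes of the ATF4 response, 25 were lower than WT and 3 higher (median -0.50, beside -0.61 in KO). ATF4, the factor of the integrated stress response, read 398.9, 376.2 and 396.9 CPM in WT, 267.1, 263.3 and 255.4 in KO and 201.2, 202.2 and 204.0 in KO+IMPDH2, so it was lowest with the enzyme (-0.37 to KO, adjusted p = 2.49e-09). The tRNA synthetases YARS1, NARS1 and SARS1 were 1.00 to 1.15 below WT. DDIT3, the stress factor CHOP, went with the enzyme from 38.88 to 42.54 CPM in KO to 15.18 to 17.84, beside 12.89 to 13.94 in WT.

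NRF2 targets and the pentose phosphate genes, also low in KO, were nearer to WT with the enzyme. Of 27, 11 were higher and 12 lower than WT, with a median of -0.09 beside -0.91 in KO. Against KO, 23 were higher and 0 lower (median 0.39). FTL, ferritin light chain, was above WT with and without the enzyme, at 2563 to 2649 CPM with the enzyme, 2303 to 2418 in KO and 1036 to 1101 in WT. ME1, malic enzyme, fell from 54.11 to 60.56 CPM in WT to 19.44 to 20.41.

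Interferon-stimulated genes stayed above WT. Of 36 tested, 27 were higher (33.5% of coding genes were), 4 lower and 5 did not pass, with a median of 0.62 beside 0.78 in KO. The median to KO was 0.06, with 15 higher and 12 lower. IFIT1, an antiviral protein that binds the ends of viral RNA, read 27.38, 27.79 and 28.11 CPM in WT, 76.82, 67.81 and 75.89 in KO and 112.4, 111.3 and 116.5 in KO+IMPDH2 (2.03 ± 0.071 over WT, adjusted p = 3.19e-14). IFIT2 and OASL were also above KO with the enzyme, by 0.91 and 0.41. BST2, tetherin, went the other way, at 50.55 to 54.17 CPM in KO, 33.34 to 36.02 with the enzyme and 13.85 to 14.88 in WT. In KO cells given guanosine instead, IFIT1 averaged 25.3 and OASL 11.1 CPM, beside WT means of 27.8 and 11.8. The summed TPM of the list was 1446 to 1489 in WT and 2446 to 2493 in KO. It was 1542 to 1957 with guanosine and 1792 to 1914 in KO+IMPDH2 libraries. The sum, in which abundant members weigh most, was thus below KO in both and still above WT.

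MHC class I genes gave 12 higher and 5 lower of 22 against WT and 5 higher and 13 lower against KO. HLA-B read 193.9, 183.8 and 194.6 CPM in WT, 539.7, 560 and 556 in KO and 453.6, 426.1 and 414.2 in KO+IMPDH2. HLA genes have close paralogs, so single values carry that uncertainty. Of 26 inflammatory cytokine and NF-kB genes, 9 were higher and 10 lower than WT, with a median of 0.03 beside 0.54 in KO. At 2-fold or more, 6 were higher and 5 lower than WT. Compared with KO, 16 were lower and 4 higher. IL11, a cytokine of the IL-6 family, read 71.74, 61.68 and 68.58 CPM in WT, 6.863, 6.378 and 7.045 in KO, and 3.244, 2.539 and 2.586 in KO+IMPDH2 (-4.59 ± 0.12 to WT, adjusted p = 7.64e-16), and so was lowest with the enzyme. CSF1, the macrophage growth factor, fell from 204.2 to 239.7 CPM in WT to 72.17 to 82.79.

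Matrix and adhesion genes were mostly lower, beside 40.3% of coding genes lower and 33.5% higher. Of 25 collagens 19 were lower than WT and 2 higher (median -0.57, beside -0.66 in KO), and of 25 integrins and laminins 17 were lower and 7 higher (median -0.28). COL7A1, the anchoring fibril collagen, fell from 52.75 to 58.27 CPM in WT to 10.68 to 12.26 and was lower than in KO (14.19 to 17.65). LAMA4, a laminin chain, fell from 18.66, 19.46 and 17.94 to 1.298, 1.56 and 1.191 CPM. ITGB4, an integrin of hemidesmosomes, rose from 52.82 to 59.3 to 123.2 to 140.2 CPM. Of 25 mesenchymal genes, 20 were lower than WT and 3 higher, with a median of -0.40 beside -0.90 in KO. Compared with KO directly, 11 were higher and 5 lower, and the median difference was only 0.06. FN1, fibronectin, read 412.8 to 432.6 CPM in WT, 203.5 to 235.9 in KO and 189.3 to 204.0 with the enzyme. TGFBI, a matrix protein, was 1.33 above KO and 1.27 below WT.

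Markers of other cell types passed no more often than coding genes at large, but the luminal and epithelial markers that passed were mostly lower. Of 17 such markers tested, 10 were lower, 1 higher and 6 did not pass (median -0.56). Of coding genes, 40.3% were lower, 33.5% higher and 73.8% passed in either direction. KRT7, a simple-epithelium keratin, read 46.7, 40.8 and 48.65 CPM in WT and 1.622, 1.161 and 1.34 in KO+IMPDH2 (-5.04 ± 0.12, adjusted p = 4.48e-16), and 1.527 to 1.631 in KO. KRT8 fell from 325.9 to 339.1 to 127.5 to 137.6 CPM. Among 8 blood and endothelial markers, 3 were higher, 2 lower and 3 did not pass. CD68, a lysosomal protein best known from macrophages, rose from 143.2, 149.8 and 144.5 to 565.3, 560.2 and 549.3 CPM, while CD3E and CDH5 stood at 0 TPM in the 3 KO+IMPDH2 libraries and CD14, KDR and PECAM1 at the low levels given above. In bulk RNA, fewer cells with a transcript and less transcript per cell cannot be told apart.

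Cancer-testis antigens went both ways at large size. Of 17 tested, 11 were lower than WT and 6 higher (median -2.39, beside -3.42 in KO). Compared with KO directly, 2 were higher and 5 lower, and the median difference was 0.0. MAGEC1 read 107.1, 109.7 and 111.9 CPM in WT and 0.4866, 0.4716 and 0.4279 in KO+IMPDH2 (-7.88 ± 0.079, adjusted p = 2.76e-21). It was also below KO, at 1.14 to 1.246 CPM. The opposite movers MAGEB1 and MAGED4 are given above, and members of this family share long stretches of sequence.

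Mitochondrially encoded genes were all above WT, 13 of 13, with a median of 0.55, and the KO+IMPDH2 cells exceeded KO in 7 and were below it in 2. MT-ND2, a subunit of complex I, read 3138, 3127 and 3147 CPM in WT, 4869, 4925 and 5168 in KO and 6361, 6046 and 6161 in KO+IMPDH2. Nuclear-encoded subunits of the respiratory chain gave 10 higher and 21 lower of 41 (median -0.13). SDHB, of complex II, fell from 69.65 to 73.62 to 28.71 to 32.52 CPM, and NDUFB9, of complex I, rose from 33.6 to 34.44 to 74.8 to 76.68. Like ENO1, SDHB lies within the stretch of low neighbours on chromosome 1 described further on. Cytosolic ribosomal protein genes gave 8 higher and 21 lower of 46, and ribosome biogenesis genes 16 higher and 9 lower of 32.

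DNA repair lists were mixed. Of 28 genes of homologous recombination and the Fanconi pathway, 13 were higher and 8 lower than WT (median 0.09), and 21 were higher than in KO. RAD50, of the break-sensing MRN complex, fell from 60.03 to 62.93 CPM in WT to 25.94 to 28.34, below KO (30.35 to 34.89). PARP1, the main DNA damage poly(ADP-ribose) polymerase, read 250.8, 252.4 and 249.5 CPM in WT, 280.9, 262.6 and 270.8 in KO and 348.8, 352.7 and 353.6 in KO+IMPDH2 (0.49 ± 0.026 over WT, adjusted p = 1.06e-11). Of the 24 PARPs and ADP-ribosylation genes, 7 were higher and 13 lower than WT. PARP12 fell by 1.07 on the log2 scale. The 27 p53 targets gave 8 higher and 14 lower, and the 24 YAP and TEAD targets 5 higher and 15 lower, beside 33.5% and 40.3% of coding genes.

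**Figure D4:**
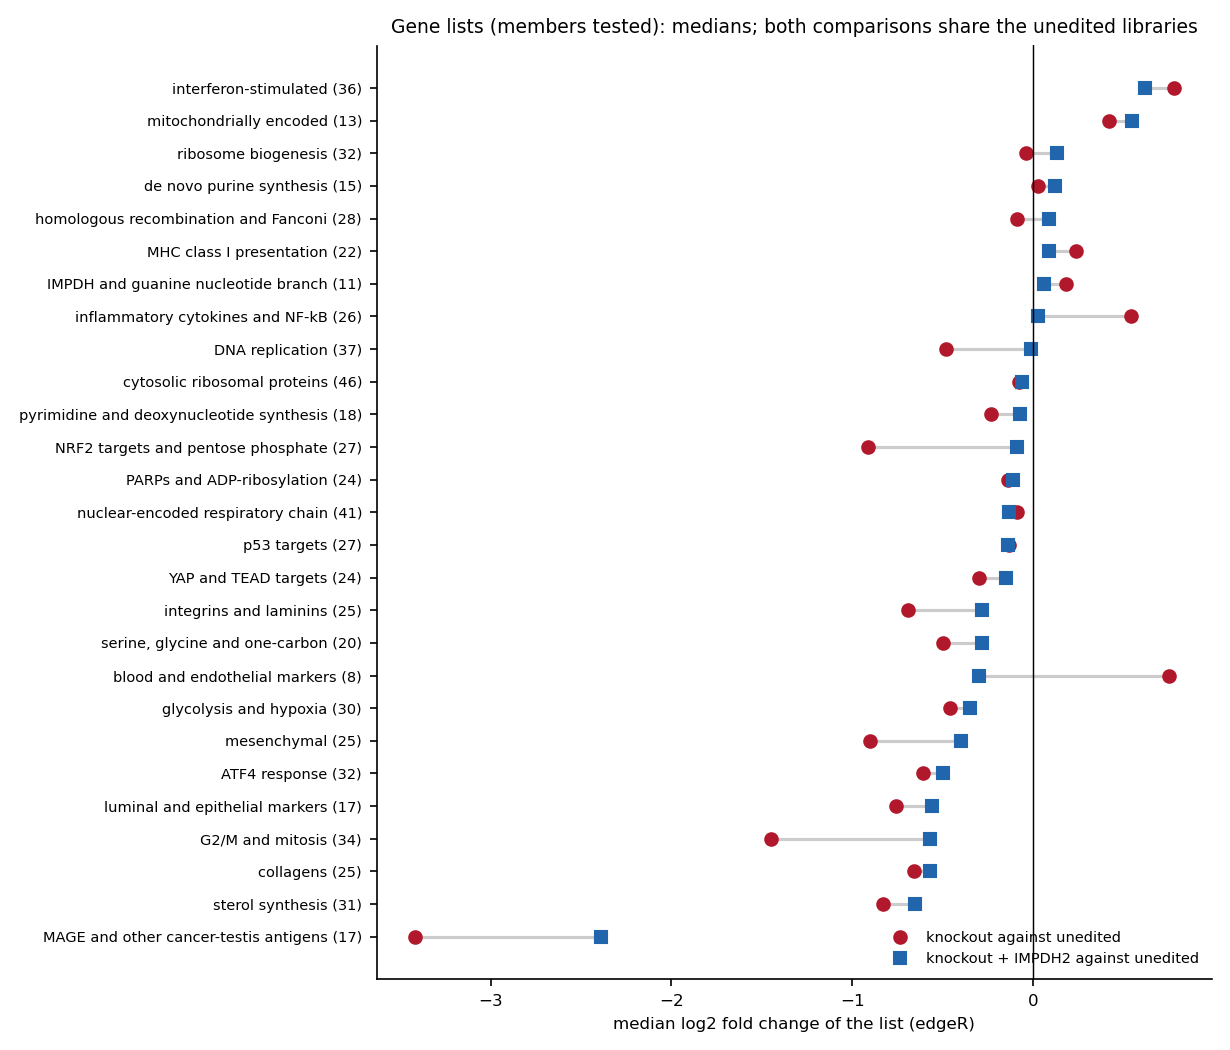
Median log2 fold change of each of the 27 gene lists in KO against WT (circles) and KO+IMPDH2 against WT (squares), with the number of members tested. Squares lie nearer to 0 than circles for G2/M genes (-0.57 against -1.45) and almost on them for collagens (-0.57 against -0.66); both comparisons use the same WT libraries.

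Differences from WT ran over whole stretches of chromosomes. In 265 windows of 50 or more neighbouring coding genes, the medians of the log2 fold change to WT had an SD of 0.289 across windows, beside 0.311 for KO against WT and 0.069 for KO+IMPDH2 against KO. In 29 windows the median was -0.5 or lower, and in 2 it was 0.5 or higher. The 3 lowest cover the start of chromosome 1 in GRCh38, at -0.99 (944204 to 3796504), -1.09 (3812081 to 11262507) and -1.17 (11273206 to 19312146), where 47, 50 and 51 of 52 genes each were below 0. Near the end of the long arm of X, the window that holds the MAGEA genes named above (135020504 to 152753884) had a median of -0.95. The last X window (152753921 to 156025710) had a median of -0.84. On chromosome 18, 168 of 199 coding genes were lower and 14 higher, with a median of -0.71. The highest window was on chromosome 19 (18683677 to 22215775) at 0.67. In KO+IMPDH2 against KO the 5 lowest of these windows had medians of -0.02 to 0.10. Subtracting each window's median left the G2/M list at -0.50, sterol synthesis at -0.60 and interferon-stimulated genes at 0.68. The MAGE list moved from -2.39 to -1.43, serine metabolism from -0.28 to -0.15 and the nuclear-encoded respiratory chain from -0.13 to -0.03. Values of single genes were not corrected for their windows. Several named genes lie in low windows, and not all of them are listed here. ENO1 and SDHB lie in the chromosome 1 windows at -1.09 and -1.17. PHGDH lies in a chromosome 1 window at -0.50 and COL4A5 in an X window at -0.71. IL13RA1, described further on, lies in an X window at -0.88. HPRT1 lies in an X window at -0.88, MCM4 in a chromosome 8 window at -0.93 and RAD50 in a chromosome 5 window at -0.65. TYMS and NARS1 lie in chromosome 18 windows at -0.54 and -0.82.

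**Figure D5:**
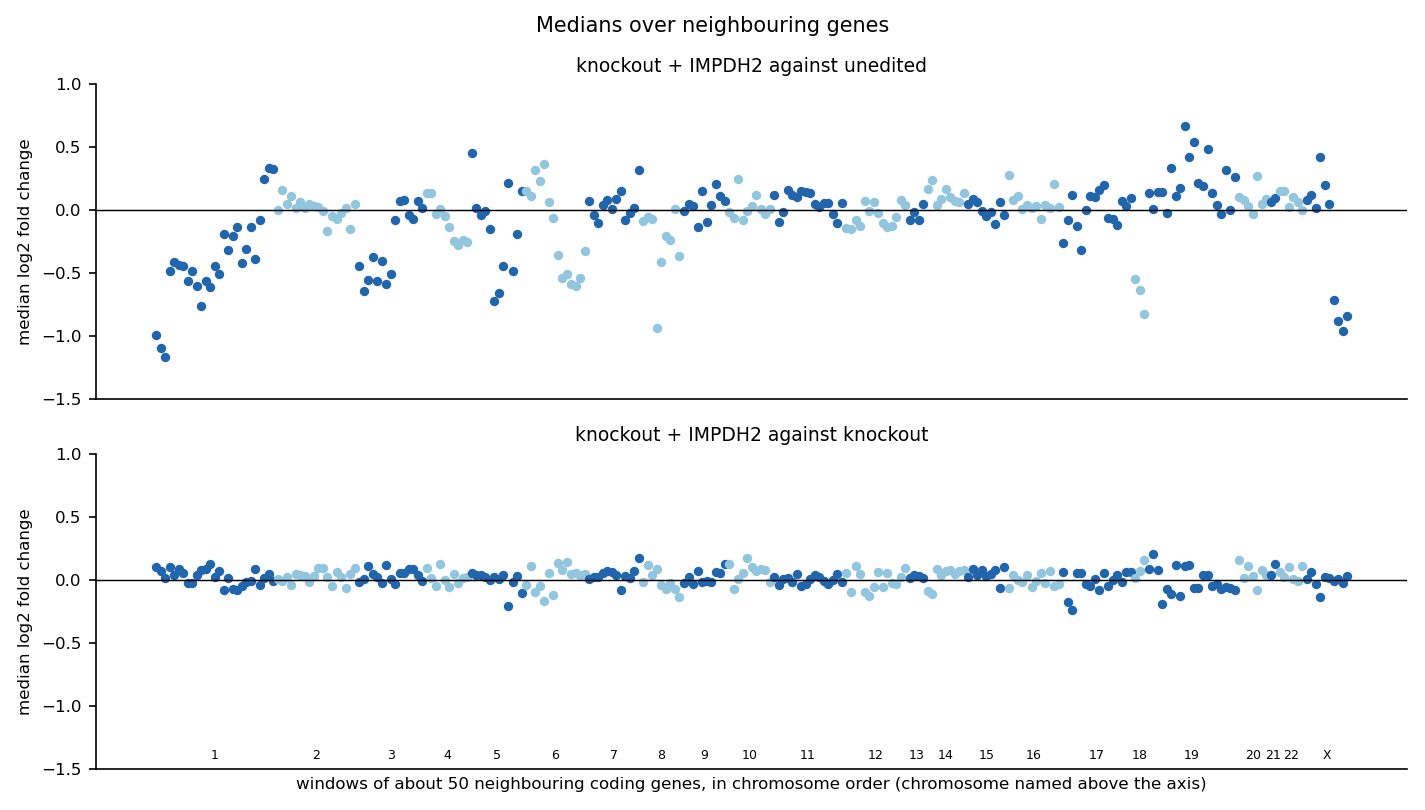
Median log2 fold change of neighbouring coding genes, one point per window, in chromosome order, for KO+IMPDH2 against WT (top) and against KO (bottom) on the same vertical axis. The upper panel has runs of low windows on chromosomes 1, 3, 5, 6, 8, 18 and X down to -1.17, and in the lower panel all windows lie between -0.24 and 0.21.

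The unlocalised form was close to the localised ones. It differed from the nuclear form in 2301 genes (12%), 107 of them (0.556%) at 2-fold or more, and from the cytosolic form in 4661 (24.2%), 230 of them (1.19%) at 2-fold or more. IL13RA2 (chromosome X, 115003975 to 115019977 in GRCh38), the decoy receptor for interleukin 13, stood apart. It read 29.09, 30.85 and 31.22 CPM in KO+IMPDH2 cells, 0.9583, 1.123 and 1.12 in WT and 1.132, 1.136 and 1.219 in KO. With the nuclear form it read 1.286, 1.132 and 1.478 CPM, and with the cytosolic form 3.782, 3.961 and 3.894. The log2 differences were 4.83 ± 0.11 from WT (adjusted p = 1.15e-16), 4.70 from KO (adjusted p = 1.09e-15), 4.55 from the nuclear form (adjusted p = 8.27e-15) and 2.97 from the cytosolic form (adjusted p = 1.5e-12). The 3 KO+IMPDH2 libraries thus lay above all 15 others. IMPDH2 itself was 0.84 and 0.49 above the nuclear and cytosolic forms on the log2 scale.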

How the data were processed

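RNA was measured in 18 libraries (polyA-selected, stranded TruSeq per the labels' protocols). The authors deposited estimated counts per transcript and, per sample, TPM values. Both come from Salmon 1.10.0 after Trim Galore 0.6.10, with hg19 named as the build, per the submitters' processing notes. Transcript counts were summed to genes and rounded; checked against the per-sample tables, they showed no difference.

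All 18 libraries were fitted with a mean per group in edgeR 4.0.16 (quasi-likelihood test, TMM, filterByExpr, R 4.3.3), with p-values adjusted by Benjamini-Hochberg over 19252 genes. On simulated data for KO+IMPDH2 against WT (18850 genes) the test found 82.1%, 92.5% and 100% of log2 changes of 0.5, 1 and 2, with 4.7% false calls. The simulation gave each gene the same mean in all groups and changed 67, 67 and 66 genes by these sizes, all above 1 CPM. Far more genes differed in the data, so these rates may not carry over. Positions are from GENCODE 29 in GRCh38, matched for 57804 of 62749 genes, as no hg19 annotation was used here. Promoters are from RefSeq in GRCh38.p14, matched by symbol. Ratios of near-silent genes use summed counts scaled to library size, with exact binomial intervals. Where the low group had 0 counts, a bound against 3 counts is given instead. CPM from estimated counts carries the uncertainty of read assignment between transcripts, since 32.5% of the deposited transcript values were not whole.

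Genes are named by rule: the 12 called coding genes highest and lowest against WT with a mean of 2 CPM and no overlap, 5 each way at 100 TPM, 8 each way against KO, 8 silent genes each way, and up to 4 members per list with those that go the other way most. The members, gene lists and tests were chosen with earlier results of these data known. Alternatives were DESeq2 1.42.0 and its size factors, library totals, no filter, a transcript-length offset, the replicate number as a block, coding genes alone, the 6 libraries alone, leaving out each library, and 10 counts for silence. No pair of libraries in a group matched within sampling noise. Some genes of these lists are counted in the totals but not reported by name here.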

Additional observations from a re-analysis of the deposited data

How the results depend on the processing

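The number of calls against WT ranged over the alternatives run from 10098 genes with an offset for transcript length to 12696 under library totals (12417 as reported). Leaving out each library gave 11806 to 11980 calls, with 2849 to 2901 at 2-fold or more. DESeq2's Wald test called 11946. Against KO, leaving out each library gave 8898 to 9139 calls (9780 as reported), and the length offset gave 6511, with 3258 higher; the cause was not tested. Of 3081 pairs of a named gene and an alternative against WT, 3058 kept their direction and side of the threshold, 13 lost the call, 8 gained it and 2 reversed. Against KO the numbers were 2894, 123, 46 and 5 of 3068. Replicate numbers did not pair the libraries (correlations of deviations -0.025 to 0.038 for equal numbers against WT), and with the replicate number as a block 12333 genes were called against WT, 9663 against KO and 13955 for KO against WT.

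Library totals in place of TMM moved the median of all genes by 0.161 on the log2 scale for KO against WT and by 0.081 for KO+IMPDH2 against WT. Under them the members higher than WT became 4 for serine and one-carbon genes (2 as reported), 7 for pyrimidine genes (4), 17 for DNA replication (10), 1 for G2/M (0), 2 for luminal markers (1) and 16 for ribosomal proteins (8), and the PARPs lower than WT became 8 (13). The same scaling reversed the medians of pyrimidine genes to 0.01 and ribosomal proteins to 0.02. Subtracting the window median reversed p53 targets to 0.02 and MHC class I to -0.10. With silence at 10 counts, 66 genes were silent in KO+IMPDH2 cells (43), 26 in WT (16), and 20 of the latter were coding (11).

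QRICH1 reversed to 0.48 against WT and 1.29 against KO with ENSG00000290315 added to it, an alternative chosen after seeing the data. Reversed without passing were PFAS (0.061), POLH (0.0334) and PES1 (-0.0491) under the length offset, POLH against WT and the others against KO, and RPL15 against KO under library totals (-0.0099). PARP4 against KO reversed to -0.0568 under library totals and passed (adjusted p = 0.0215 by edgeR's quasi-likelihood test). Genes with few counts are limited by depth, since 3 counts over a group correspond to 0.0183 to 0.0199 CPM.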

Other observations

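Other MHC class II genes were above WT along with HLA-DRA; these genes were chosen after their values were seen, and all p-values are adjusted values from edgeR's quasi-likelihood test. HLA-DRB1, a beta chain, read 4.284, 3.858 and 3.999 CPM in WT, 34.17, 35.08 and 31.69 in KO and 55.0, 55.75 and 50.01 in KO+IMPDH2 cells, with no overlap. HLA-DPA1 read 5.074 to 5.681, 23.29 to 25.33 and 44.06 to 46.33 CPM in the same order. The log2 fold changes to WT were 3.72 for HLA-DRB1, 3.08 for HLA-DPA1 and 3.38 for HLA-DPB1. HLA-DMB and HLA-DMA, which load peptides, rose by 1.96 and 0.94. CD74, the invariant chain, rose by 0.42. CIITA, the master regulator of class II genes, read 14.32 to 17.53 CPM in WT, 10.36 to 10.45 in KO and 22.85 to 24.35 with the enzyme. It was thus below WT in KO, where HLA-DRA and HLA-DRB1 were above it. The difference of KO+IMPDH2 from WT was 0.52 on the log2 scale, which did not pass with an offset for transcript length (adjusted p = 0.21). RFX5, a factor that binds class II promoters, fell by 0.76.

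Zinc finger genes with a ZNF number on chromosome 19 were mostly higher, also a group chosen after its values were seen. Of 239 tested, 191 were higher than WT and 10 lower, with a median log2 fold change of 0.55, beside 0.59 in KO against WT and -0.06 against KO. Of 235 ZNF genes elsewhere, 116 were higher and 62 lower (median 0.16). The other 790 coding genes of chromosome 19 gave 349 higher and 176 lower (median 0.12).

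MMP3, stromelysin, read 6.37, 6.104 and 6.038 CPM in WT, 42.4, 46.52 and 40.51 in KO and 64.05, 66.31 and 64.3 in KO+IMPDH2 cells, the highest of the 3 groups. IL13RA1, a signalling receptor of interleukin 13, read 87.12 to 90.55 CPM in WT, 29.29 to 30.61 in KO and 37.21 to 37.79 with the enzyme, and so was below WT in both and 0.31 above KO on the log2 scale. NOX4, a NADPH oxidase, read at most 0.0424 CPM in WT, 0.7366 to 0.839 in KO and 1.544 to 1.759 with the enzyme, and was above the nuclear form by 0.84 and the cytosolic form by 0.89 on the log2 scale (adjusted p = 0.0221 and 0.00827).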
